A study of Mus musculus with 16 samples.

Results

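Left ventricular messenger RNA from mice 24h after abdominal surgery was set against that from mice 3h after surgery, 4 libraries against 4, out of 16 in the series. The libraries were taken by their labelled time, and 16866 of the 57143 genes in the table, those whose TPM averaged 0.5 or more over all 16 libraries, were tested. TPM is a level scaled for gene length and depth, with the same total in every library. All mice were male C57BL/6, an inbred laboratory strain, and all 4 times, 0h included, are labelled as following abdominal surgery, which was done under sevoflurane, an inhaled anaesthetic. The remaining libraries, 4 at 0h and 4 at 7d, entered the estimate of the spread and are cited as levels. No group without surgery was analysed here, and the sources used here do not give the age of the mice, the hour of collection or food intake. Time after surgery, clock hour and feeding cannot be told apart. The labels do not say that each library is a separate mouse, and p-values then measure the spread between these libraries, which may be technical.

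The study's title ties heart injury after non-cardiac surgery to S100A8 and S100A9, the paired calcium-binding proteins that neutrophils carry in bulk and release at sites of inflammation. An operation sets off a wave of cytokines, stress hormones and circulating leukocytes within hours, which is followed by a slower phase of acute phase proteins, altered fuel use and repair. The adult heart burns mainly fatty acids, whose handling is set in large part by the nuclear receptor PPARA, and it answers oxidants through NRF2, a transcription factor that switches on glutathione and quinone detoxifying genes. In whole tissue a lower level can come from fewer cells of a type or from less RNA per cell, and these cannot be told apart here.

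Total counts ran from 9.06 to 9.66 M in the 3h libraries and from 9.11 to 11.3 M in the 24h libraries. Libraries of 1 time correlated at 0.982 to 0.986 (3h) and 0.975 to 0.983 (24h) on the log2 scale, against 0.970 to 0.979 between the times. The first principal component (29.4% of the variance of these 8 libraries) placed all 3h libraries on one side and all 24h libraries on the other, with 24h replicate 3 nearest to 3h. Cardiomyocyte markers were abundant in every library, at a summed TPM of 94629 to 100780.0 at 3h and 82034 to 90422 at 24h. The sums did not overlap, and of the 10 members Actc1 alone was called, lower, while the median log2 fold change of the list was 0.009 and 6 of 10 values were positive. Transcripts of other tissues differed between libraries of 1 time: Myl7, the atrial myosin light chain, stood at 0.977, 2.73, 146 and 8.39 TPM at 3h (values are given in the order of replicates 1 to 4) and at 63.8, 126, 6.97 and 159 TPM at 24h. Alb, liver albumin, stood at 0, 35.6, 28.5 and 5.42 TPM at 3h and at 0.415, 0.54, 0 and 0.121 TPM at 24h. Myl7 was thus high in 1 of 4 libraries at 3h and in 3 of 4 at 24h, and counts of changed genes are given below also with Myl7 as a covariate.

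Between 3h and 24h, 1279 genes changed, which is 7.58% of those tested (edgeR quasi-likelihood test, Benjamini-Hochberg adjusted p under 0.05), with 679 higher at 24h (4.03%) and 600 lower (3.56%). The change was at least a doubling for 157 of the higher and a halving for 155 of the lower genes, and the median log2 fold change over all tested genes was 0.0047. In 1860 genes (11%) the 4 libraries of one time did not overlap in TPM with the 4 of the other. The shares of 4.03% higher and 3.56% lower are those against which each list count below is to be read. Among called genes that averaged 2 TPM or more at either time and did not overlap, the 12 largest rises included Cxcl5, Rnase1, Ppp1r3g, Cdo1, Saa3, Ccl2, Cstdc2, Lcn2, Fetub, Pbld1 and Acot1, a mixture of chemokines, secreted defence proteins and enzymes of sulphur amino acid and fatty acid metabolism. The 12 largest falls were Cyp1a1, Apoa1, Pvalb, Ifitm5, Tuba4a, Tfrc, Apln, Tent5b, Ces2e, Runx3, Ip6k3 and Foxo6os. The others named here were called whichever 1 of the 8 libraries was left out, while Cstdc2, Pvalb, Ifitm5 and Tent5b each lost the call in 5 to 7 of the 8 fits that left out 1 library (adjusted p up to 0.14). Ifitm5 kept it when 24h replicate 4 was left out, and Pvalb without 3h replicate 2 or 24h replicate 1. Tent5b kept it without 3h replicate 2, 24h replicate 3 or 24h replicate 4, and Cstdc2 without 3h replicate 1, 24h replicate 1 or 24h replicate 3. With Myl7 as a covariate 539 genes were called (265 higher, 274 lower), and with the 3h and 24h libraries fitted alone 812 were (422 higher, 390 lower). Leaving out any 1 of the 4 3h libraries gave 766 to 834 called genes, leaving out 24h replicate 1 gave 756, and leaving out 24h replicate 3 gave 1644.

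**Figure D1:**
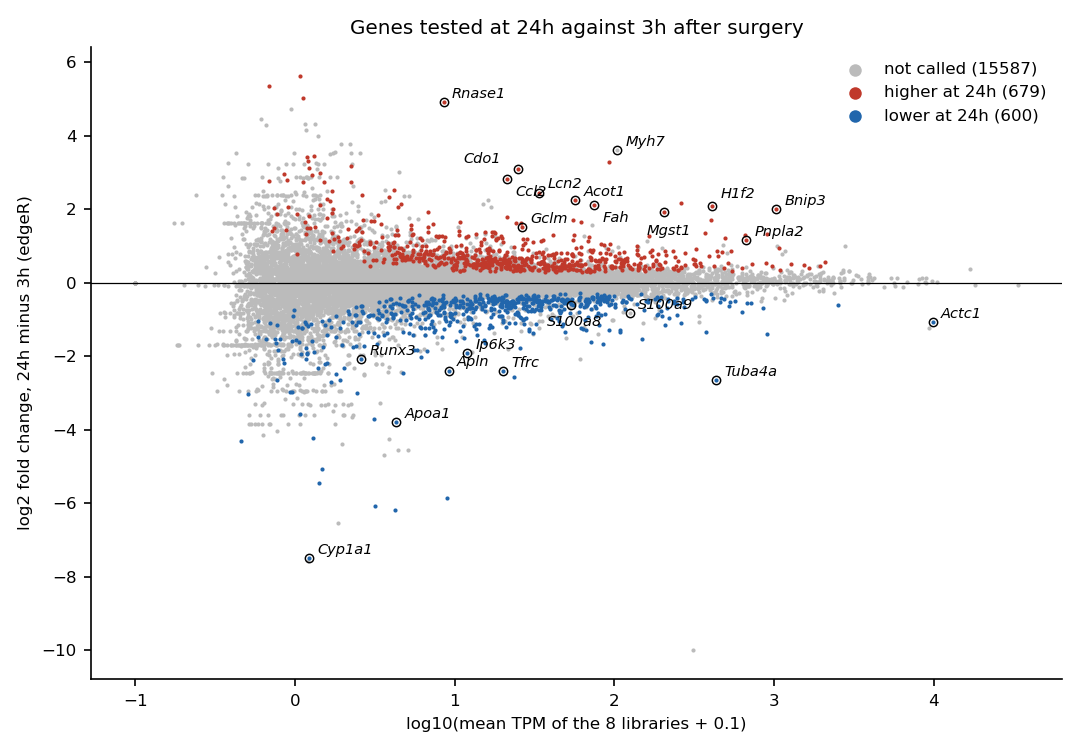
Each point is 1 of 16866 tested genes, with the log10 of its mean TPM over the 3h and 24h libraries (plus 0.1) on the x axis and its log2 fold change, 24h minus 3h, on the y axis; red and blue points are the 679 higher and 600 lower genes with an adjusted p under 0.05. Called genes lie on both sides of 0 over most of the range of levels, the circled genes are named in the text, and the fitted value of Cyp1a1, with 0 counts at 24h, depends on the prior count.

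The list of NRF2 targets and antioxidant enzymes, genes of glutathione use and oxidant removal, had 13 of 29 tested members higher at 24h and 0 lower, with a median log2 fold change of 0.42, against 4.03% higher among all genes tested. Gclm, the regulatory subunit of the enzyme that limits glutathione synthesis (chr3:122245557-122270732, + strand, GRCm38), stood at 13, 14, 15.2 and 13.3 TPM at 3h and at 41.8, 36.9, 31.9 and 43.3 TPM at 24h, so that the lowest 24h library lay above every 3h library. The log2 fold change was 1.52 ± 0.14 (adjusted p = 5.6e-07), where the error is the standard error. Cat, the catalase that breaks down hydrogen peroxide in peroxisomes, went from 174, 221, 226 and 230.2 to 522, 499.9, 522 and 562 TPM, again with no overlap, a change of 1.35 ± 0.13 (adjusted p = 5.6e-07). Sqstm1, which links cargo to autophagosomes and frees NRF2 from its inhibitor, changed by 1.23 ± 0.16 (adjusted p = 3.0e-05). Ftl1, the ferritin light chain that stores iron, changed by 0.96 ± 0.16 (adjusted p = 0.00052), though reads of Ftl1 can be shared with its processed copies. The other 9 called members were Gstm1, Gpx3, Mgst1, Srxn1, Gsta4, Nqo1, Sod1, Osgin1 and Nfe2l2, the gene of NRF2 itself, with log2 fold changes from 0.34 (Nfe2l2) to 1.92 (Mgst1). In Gclm, Cat, Sqstm1 and Ftl1 every 24h library also lay above every 0h library, with Gclm at 16.5, 12.6, 18.6 and 12.3 and Cat at 277, 264, 295 and 238 TPM at 0h. At 7d Gclm stood at 16.7, 12.8, 13.9 and 13.3 TPM. With Myl7 as a covariate 8 members were higher, and without 3h replicates 2 and 3 there were 6. Sod1 kept the call only when 24h replicate 2 or 3 was left out, and Nfe2l2 only without 3h replicate 1, 24h replicate 2 or 24h replicate 3 (adjusted p otherwise up to 0.13).

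The promoters of this list were searched for the antioxidant response core, TGACNNNGC on either strand, which is the DNA element that NRF2 binds with its small MAF partners. Of 24 list members with a promoter of 300 bases in the RefSeq table (GRCm38.p6, 250 bases before and 50 after the start of transcription), 10 held the core (41.7%), as did 5 of the 12 called members with a promoter (41.7%), against 17.0% of the 10895 promoters of tested genes and 17.3% of those of all genes that were higher at 24h. The core was also found in 6 of 17 promoters (35.3%) of the clock list and in 8 of 23 of the immediate early list. It was in 4 of 13 of the metallothionein and iron list and 6 of 20 of the p53 list. The glucocorticoid-responsive list had it in 6 of 20 and the tubulin list in 3 of 10, and neither had a member called higher. Shares were low in the fatty acid list (1 of 29) and the lipogenesis list (0 of 20). A share above that of all tested genes was thus not particular to the NRF2 list, and no test of these shares was made. In Srxn1, a called member, the core lay after the start. The other 4 called members, with a core before the start, are shown with up to 20 bases on each side, 5′ to 3′ on the gene's strand with the 9 bases of the core in capitals, because they are the promoters in which the sequence and the rise can be read side by side: Gclm (chr3:122245403-122245451 on the + strand), Mgst1 (chr6:138140451-138140499 on the + strand), Sod1 (chr16:90220686-90220734 on the + strand) and Nfe2l2 (chr2:75704875-75704913 on the - strand).
Gclm: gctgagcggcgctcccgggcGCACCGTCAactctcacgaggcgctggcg
Mgst1: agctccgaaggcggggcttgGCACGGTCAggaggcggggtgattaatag
Sod1: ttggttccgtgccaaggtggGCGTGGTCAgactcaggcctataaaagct
Nfe2l2: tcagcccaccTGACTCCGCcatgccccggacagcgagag
The core began 134 bases before the start in Gclm, 56 in Mgst1 and in Sod1, and 240 in Nfe2l2, and it lay on the opposite strand in all but Nfe2l2. The list was drawn up as targets of NRF2, so a share of the core above that of all genes can follow from its membership alone. A match describes the letters of a window and is neither a shown binding site nor a cause.

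The list of fatty acid oxidation and PPARA targets, enzymes that activate, import and burn fatty acids, had 11 of 36 tested members higher and 0 lower, against 4.03% higher among all genes, with a median of 0.30. Acot1, a cytosolic thioesterase that frees fatty acids from coenzyme A, rose from 16, 21.9, 19.7 and 23.5 to 119.9, 92.9, 58.7 and 101 TPM, or by 2.26 ± 0.26 (adjusted p = 0.00017), with no overlap. Its mitochondrial relative Acot2 rose by 1.01 ± 0.12 (adjusted p = 2.2e-05). The pair are near-identical in sequence and reads could be split between them. The fatty acid transporter Slc27a1 changed by 0.88 ± 0.12 (adjusted p = 8.3e-05). Cpt2, Eci2, Acadl, Cd36, Slc25a20 and Eci1 were also called, each by less than a doubling. By contrast, edgeR called 0 of 76 nuclear genes of oxidative phosphorylation (3 at an unadjusted p under 0.05, and 1 lower by DESeq2 and by limma) and 0 of 24 genes of the tricarboxylic acid cycle (2 unadjusted, by DESeq2 1 higher and 1 lower, by limma 1 lower, and 1 higher without 24h replicate 2). With Myl7 as a covariate 6 of the 36 were higher, and leaving out 3h replicate 1, 3h replicate 2, 24h replicate 1 or 24h replicate 4 gave 7, while without 24h replicate 3 there were 13 higher and 2 lower.

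In the list of lipogenesis and triglyceride storage 7 of 25 tested members were higher, 1 was lower and 17 were not called, against 4.03% and 3.56% among all genes, with a median of 0.17. Without 3h replicate 2 or 3 the count higher was 4. Pnpla2, the lipase that starts triglyceride breakdown, stood at 398, 409, 448 and 413 TPM at 3h and at 942, 885, 929 and 903 TPM at 24h (1.17 ± 0.13, adjusted p = 6.5e-06). At 0h it stood at 366, 340.2, 396 and 309 TPM. The lipid droplet coat gene Plin2 changed by 1.26 ± 0.22 (adjusted p = 0.0023) and Acaca, which makes the first committed step of fatty acid synthesis, by 1.01 ± 0.18 (adjusted p = 0.0014). Thrsp, a gene of lipogenic tissues, fell, from 104, 105, 106 and 90.3 to 52.9, 40.7, 42 and 71.4 TPM (-0.91 ± 0.20, adjusted p = 0.0089). Its 0h level was 55.3, 57.6, 76.8 and 45.2 TPM. Pnpla2, Plin2, Acaca and Thrsp were called whichever library was left out. Leaving out 3h replicate 2 or 3h replicate 3 gave 4 higher members of this list. In cholesterol synthesis 1 of 24 genes rose and 1 fell, near the shares of 4.03% and 3.56% among all genes. Fdft1, the squalene synthase, changed by 1.16 ± 0.13 (adjusted p = 9.6e-06), and Sc5d, a later desaturase of the path, by -0.50 ± 0.11 (adjusted p = 0.0069). Of 32 genes of glycolysis and glycogen 1 rose and 2 fell, against 4.03% and 3.56% among all genes. Slc2a1, the basal glucose transporter, rose by 0.53 ± 0.12 (adjusted p = 0.0094), while Ppp1r3c, which targets a phosphatase to glycogen, and Pfkfb3, an activator of glycolysis, fell by 0.76 ± 0.12 and 1.32 ± 0.26 on the log2 scale (adjusted p = 0.00033 and 0.0049). Ppp1r3g, a further glycogen-targeting subunit, was among the largest rises at 3.12 ± 0.67 (adjusted p = 0.0055), from 0.214, 0.358, 0.227 and 0.115 to 3.25, 1.88, 2.07 and 0.844 TPM.

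Breakdown of amino acids and foreign compounds formed the next groups, from lists that were put together after values had been seen, so that their counts describe and support nothing. Of 34 amino acid catabolism genes 11 were higher and 0 lower, and of 34 genes of drug and aldehyde metabolism 10 were higher and 3 lower, against 4.03% and 3.56% among all genes. The amino acid count was 6 with Myl7 as a covariate, 5 without 3h replicate 1, 6 without 3h replicate 3, 3h replicate 4, 24h replicate 1 or 24h replicate 3, 7 without 3h replicate 2 or 24h replicate 4, and 14 without 24h replicate 2. Fah, which completes tyrosine breakdown, rose from 26.6, 30.8, 28.7 and 30.1 to 166, 80.8, 91.6 and 142 TPM (2.12 ± 0.30, adjusted p = 0.0010). Cdo1, the cysteine dioxygenase, rose from 4.56, 3.72, 7.07 and 6.4 to 97.8, 30.6, 16.8 and 30.6 TPM (3.10 ± 0.52, adjusted p = 0.0030). In both genes every 24h library exceeded every 3h library, and 24h replicate 1 was the highest. Aldh6a1, of valine breakdown, and Pbld1 changed by 0.68 ± 0.11 (adjusted p = 0.00047) and 2.33 ± 0.36 (adjusted p = 0.00030). The oxidases Fmo5 and Aox1 changed by 1.38 ± 0.16 (adjusted p = 9.6e-06) and 1.21 ± 0.16 (adjusted p = 7.7e-05). The epoxide hydrolase Ephx2 changed by 0.87 ± 0.13 (adjusted p = 0.00020), and Cyp4b1 by 0.81 ± 0.14 (adjusted p = 0.00077). Of 31 peroxisome genes 7 were higher, Cat and Ephx2 among them, and 0 lower, against 4.03% and 3.56% among all genes. The count higher was 4 without 3h replicate 1, 24h replicate 1 or 24h replicate 4. Cyp1a1, the cytochrome that the aryl hydrocarbon receptor induces, went the other way: its 81 counts at 3h (1.55, 2.19, 2.85 and 2.33 TPM) became 0 counts in all 4 libraries at 24h, at least 29.4-fold lower against a floor of 3 counts over the group (adjusted p = 0.0074). At 0h it stood at 1.25, 0.348, 0.947 and 2.12 TPM. The carboxylesterase Ces2e changed by -2.19 ± 0.48 (adjusted p = 0.0059).

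**Figure D2:**
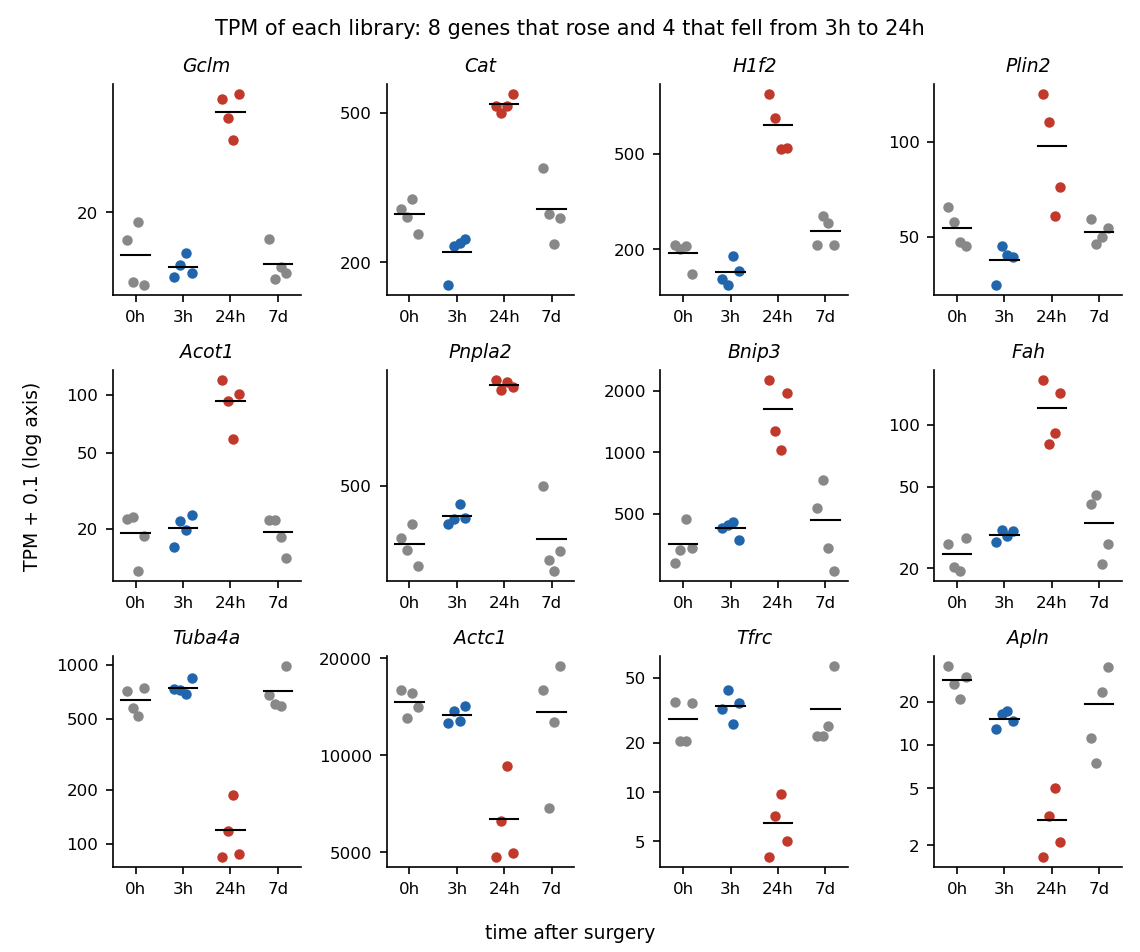
TPM plus 0.1 on a log axis against time after surgery, with 1 point per library, 4 libraries per time, and the mean as a bar; 3h is blue, 24h red and 0h and 7d grey. In each of the 8 rising genes the lowest 24h library lies above the highest 3h library, and in each of the 4 falling genes the reverse holds.

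In a mixed list of FOXO targets, autophagy and muscle atrophy 8 of 35 tested members were higher and 0 lower, against 4.03% higher among all genes (median 0.16). Bnip3, a receptor that marks mitochondria for removal, stood at 429, 442, 457 and 373 TPM at 3h and at 2268, 1275, 1024 and 1949 TPM at 24h (2.01 ± 0.35, adjusted p = 0.0043). The 24h libraries were spread over a wider range than those of 3h. Besides Sqstm1, the ubiquitin ligase subunit Fbxo31 changed by 0.83 ± 0.15 (adjusted p = 0.0011) and the lysosomal membrane protein Lamp2 by 0.46 ± 0.10 (adjusted p = 0.0066). Map1lc3b, Gabarapl1, Ctsl and Cdkn1b were the other called members. With Myl7 as a covariate 3 of the 35 were called, Lamp2 no longer among them (adjusted p = 0.061), and without 24h replicate 3 there were 11 higher and 2 lower. Of 5 tested linker histones, which pack chromatin, 2 were higher, against 4.03% higher among all genes, in a list assembled after values were seen. H1f2 stood at 151, 142, 188 and 163 TPM at 3h and 889, 706, 522 and 526 TPM at 24h (2.08 ± 0.17, adjusted p = 5.6e-07). H1f4 changed by 1.31 ± 0.33 (adjusted p = 0.016) and lost the call without 3h replicate 1 or without 24h replicate 1 (adjusted p up to 0.063). Most messages of such histones end without a poly(A) tail, and the libraries are labelled as polyA RNA. In the list of metallothioneins and iron 2 of 17 tested genes were higher and 1 was lower, against 4.03% and 3.56% among all genes. The list had no common direction, with 8 values positive, 9 negative and a median of -0.10. Ftl1 rose, and Slc40a1, the iron exporter, rose by 0.90 ± 0.13 (adjusted p = 0.00014). Tfrc, the receptor that takes iron in with transferrin, fell from 32, 41.8, 26.1 and 34.9 to 3.89, 7.0, 9.68 and 4.92 TPM (-2.40 ± 0.37, adjusted p = 0.0019). Leaving out 24h replicate 3 gave 3 higher and 3 lower members, and each other library left out gave 2 and 1.

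Tuba4a, an alpha tubulin of muscle and platelets (chr1:75214228-75219865, - strand), had the smallest adjusted p of all genes: 729, 724, 684 and 842 TPM at 3h and 83.7, 117, 187 and 87 TPM at 24h, a log2 fold change of -2.65 ± 0.20 (adjusted p = 3.6e-07). Its levels were 716, 572, 517 and 740.1 TPM at 0h and 681, 603, 589.5 and 989 TPM at 7d, so that the 4 libraries at 24h were below all 12 others. In the tubulin list 4 of 13 tested members were lower and 0 higher, against 3.56% lower among all genes, with a median of -0.31. Tuba1b and Tuba8 changed by -1.29 ± 0.15 (adjusted p = 2.4e-05) and -0.96 ± 0.15 (adjusted p = 0.00038), and Tubb5 by -0.44 ± 0.12 (adjusted p = 0.029). Tubulin genes are alike in sequence, and Tubb5 kept the call only without 3h replicate 3, 24h replicate 1 or 24h replicate 2 (adjusted p otherwise up to 0.078). Actc1, cardiac actin and one of the most abundant messages here, went from 12560.0, 13740.0, 12741 and 14183 to 4829, 6236, 9276 and 4973 TPM (-1.06 ± 0.20, adjusted p = 0.0026). 24h replicate 3 was the highest of the 24h libraries for Tuba4a, for Actc1 and for Ip6k3, a kinase of inositol phosphates in muscle that fell by 1.92 ± 0.20 on the log2 scale (adjusted p = 4.7e-06). Of 25 contractile and stress genes, whose median was 0.01, 2 were lower and 1 was higher, against 3.56% and 4.03% among all genes. Actc1 and Ankrd23, a stretch-responsive repeat protein, were lower, and Xirp1, which binds actin at cell junctions, was higher (0.83 ± 0.15, adjusted p = 0.0016). Ankrd23 changed by -1.25 ± 0.31 (adjusted p = 0.018) and lost the call without 3h replicate 2 (adjusted p = 0.058).

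Myh7, the beta myosin heavy chain that mouse ventricles express before birth and under load, did not pass the test although its libraries did not overlap. It was singled out after its values were seen. It stood at 9.0, 13.7, 24.6 and 18 TPM at 3h and at 159, 216, 162 and 231 TPM at 24h. Its levels were 49.2, 38.3, 99.8 and 35.2 TPM at 0h and 387, 4062, 172 and 29.96 TPM at 7d. The log2 fold change of 24h minus 3h was 3.62 ± 1.15 (adjusted p = 0.081) in the fit of all 16 libraries, in which the spread at 7d enters the error. With the 3h and 24h libraries fitted alone it was 3.61 (edgeR adjusted p = 0.00012), and DESeq2 on all libraries gave an adjusted p of 0.0026. Over the alternatives with a filter the adjusted p ran up to 0.40, in the 4 libraries of low Myl7.

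Calcium and ion channel genes were called only downward, 4 of 34 tested, against 3.56% lower among all genes (median -0.18). Casq2, the calcium store protein of the sarcoplasmic reticulum, went from 817, 1124, 1128 and 1173 to 519, 614, 947 and 544 TPM (-0.67 ± 0.15, adjusted p = 0.0060). Its groups overlapped, through 24h replicate 3 and 3h replicate 1. Kcne1, a subunit of a repolarizing potassium channel, went from 6.46, 7.61, 7.42 and 6.93 to 1.66, 3.05, 4.29 and 3.89 TPM (-1.12 ± 0.25, adjusted p = 0.0069). At 0h it stood at 3.49, 4.73, 4.46 and 4.91 TPM. Kcnh2 and Hcn2, a further potassium channel and a pacemaker channel, changed by -0.45 ± 0.13 (adjusted p = 0.034) and -0.79 ± 0.23 (adjusted p = 0.041), and kept the call only without 24h replicate 3 or 24h replicate 4 (Kcnh2) and without 3h replicate 2 or 24h replicate 3 (Hcn2), the adjusted p being otherwise up to 0.12. Neither was called with Myl7 as a covariate (adjusted p = 0.13 and 0.14). Leaving out 24h replicate 3 gave 10 lower members of this list, and the 4 libraries of low Myl7, in which 24h replicate 3 is the sole 24h library, gave 3 higher and 0 lower.

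**Figure D3:**
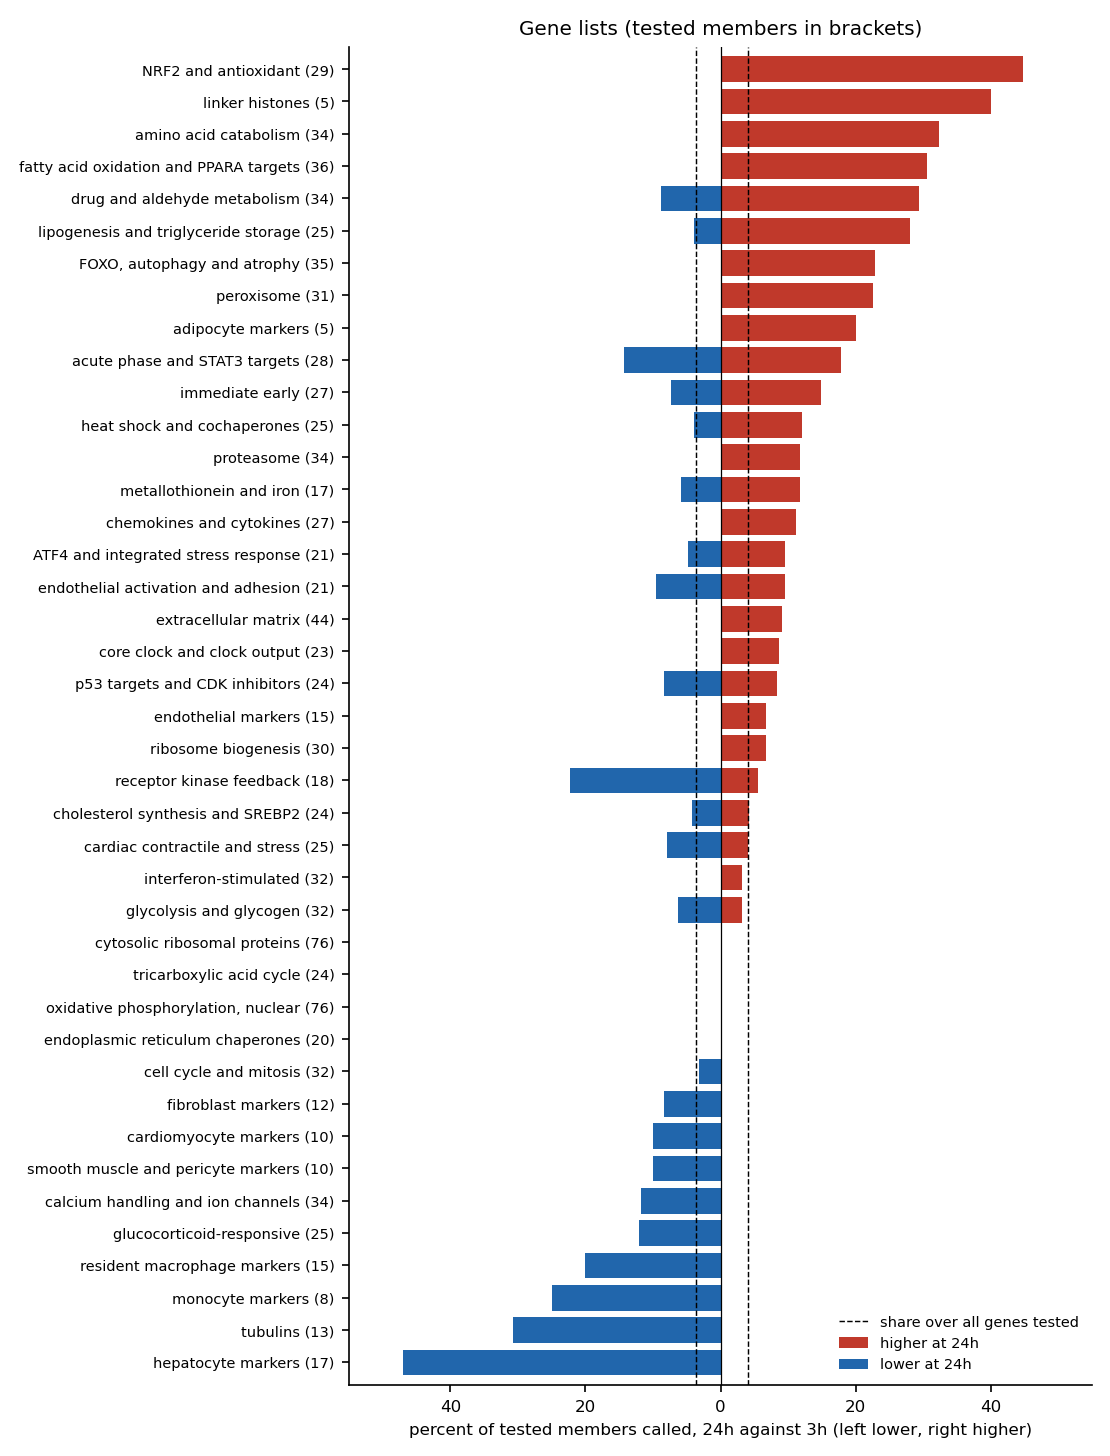
Percent of the tested members that were called at 24h against 3h, for lists of 5 or more tested members with a call and 4 pathway lists with none, to the right where higher and to the left where lower, with the number of tested members in brackets; dashed lines mark 4.03% and 3.56%, the shares over all 16866 genes. The antioxidant list (13 of 29) reaches farthest to the right, and hepatocyte markers (8 of 17) and tubulins (4 of 13) farthest to the left. Hepatocyte markers could pass the filter on mean TPM through their 3h level alone. The linker histone, amino acid, drug and aldehyde, peroxisome and receptor kinase lists were assembled after values had been seen.

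The genes of the study's title did not differ between 3h and 24h beyond the spread. S100a8 (chr3:90668978-90670035, + strand) stood at 130.4, 49.6, 44.9 and 37.9 TPM at 3h and at 22, 26.9, 20.3 and 97.9 TPM at 24h. Its levels were 0.719, 2.79, 4.89 and 1.89 TPM at 0h and 9.0, 26.5, 2.87 and 10.4 TPM at 7d, and the log2 fold change was -0.60 ± 0.66 (adjusted p = 0.66). S100a9 (chr3:90692632-90695721, - strand) stood at 356, 113, 80.8 and 92.5 TPM and 31.6, 64.8, 72 and 189.6 TPM, against 6.21, 4.34, 2.89 and 4.41 TPM at 0h, with a change of -0.83 ± 0.68 (adjusted p = 0.53). The groups overlapped in both genes: 3h replicate 1 was the highest of the 8 libraries and 24h replicate 4 the next. An exact two-sided permutation test of the mean log2(TPM + 1) gave a difference of -0.78 for S100a8 and -0.85 for S100a9, each with p = 0.314, where the smallest p that the 70 orderings of 4 and 4 libraries allow is 0.0286. Set beside 0h in the same fit, S100a8 was at 4.96 (3h) and 4.36 (24h) on the log2 scale, and S100a9 at 5.33 and 4.51. These values share the 0h libraries. Without 24h replicate 4 the log2 fold changes were -1.57 and -1.62 (edgeR adjusted p = 0.14 and 0.19). Without 3h replicate 1 the difference between 24h and 3h changed sign, to 0.04 for S100a8 and 0.0042 for S100a9 (edgeR adjusted p = 0.99 and 1).

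No neutrophil marker was called, 0 of 13 tested by edgeR against 7.58% of all genes, with 3 at an unadjusted p under 0.05. DESeq2 and limma also called 0. The list includes S100a8 and S100a9, and its median of -0.60 is the value of S100a8. Its median and summed TPM are thus not separate from the values of those genes. The 3h and 24h libraries fitted alone gave 1 lower marker, the fit without 24h replicate 4 gave 2 and that with no filter on low counts 3, and the median ran from -0.91 without 24h replicate 4 to 0.0042 without 3h replicate 1. Cxcr2, the chemokine receptor that steers neutrophils, had 2.08, 2.75, 1.61 and 1.73 TPM at 3h and 0.638, 0.934, 0.675 and 0.747 TPM at 24h without overlap (-1.41 ± 0.58, adjusted p = 0.15). With the 3h and 24h libraries fitted alone its adjusted p was 0.030. Csf3r, the receptor of their growth factor, had 6.55, 3.3, 3.81 and 4.29 TPM at 3h and 3.84, 2.45, 3.01 and 1.5 TPM at 24h (-0.71 ± 0.32, adjusted p = 0.20). The summed TPM of the whole list was 164 to 597 at 3h and 82.6 to 349 at 24h, with Elane at 0 in all 8 libraries. Monocyte markers were lower in 2 of 8 tested members, against 3.56% lower among all genes, with 7 values negative and a median of -0.67. Their summed TPM was 87.3 to 104 at 3h and 41 to 61.8 at 24h, which do not overlap. A single marker, 1 of 8, was lower when 3h replicate 2, 3 or 4 or 24h replicate 1, 2 or 4 was left out. Ms4a6c, a membrane protein of monocytes, fell from 45.7, 37.1, 43.4 and 40.4 to 12.8, 15.3, 10.2 and 29.3 TPM (-1.25 ± 0.26, adjusted p = 0.0074). Ace, the angiotensin converting enzyme, which endothelium also makes, changed by -0.58 ± 0.17 (adjusted p = 0.046) and kept the call only without 3h replicate 1 or 24h replicate 3 (adjusted p otherwise up to 0.14). Of 15 resident macrophage markers 3 were lower and 0 higher, against 3.56% and 4.03% among all genes, with 13 values negative and a median of -0.41. Folr2, a folate receptor, changed by -0.75 ± 0.16 (adjusted p = 0.0057). The haemoglobin scavenger Cd163 changed by -1.01 ± 0.25 (adjusted p = 0.025) and Cbr2 by -0.47 ± 0.14 (adjusted p = 0.038). Cd163 lost the call without 3h replicate 3, 3h replicate 4, 24h replicate 1 or 24h replicate 3, and Cbr2 kept it only without 3h replicate 2, 24h replicate 2 or 24h replicate 4 (adjusted p otherwise up to 0.17). The macrophage list had 6 lower and 1 higher member without 24h replicate 4, and 1 lower without 24h replicate 1, 24h replicate 3, 3h replicate 3 or 3h replicate 4. Its summed TPM was 1014 to 1269 at 3h and 708 to 1076 at 24h. Lymphocyte markers were called in 0 of 7, against 7.58% of all genes (4 at an unadjusted p under 0.05, 0 by DESeq2 or limma). All 7 markers had negative log2 fold changes, with a median of -1.33, and of -1.54 to -1.11 with 1 library left out. Their summed TPM was 11.2 to 19.9 at 3h and 4.02 to 8.01 at 24h. Runx3, a transcription factor of T cells and natural killer cells, fell from 5.59, 3.99, 3.91 and 2.66 to 0.291, 0.885, 0.469 and 2.1 TPM (-2.07 ± 0.40, adjusted p = 0.0030).

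Acute phase genes and targets of STAT3, the transcription factor downstream of interleukin 6, split into 5 higher and 4 lower of 28 tested, against 4.03% and 3.56% among all genes (median -0.07). With 1 library left out 2 to 6 were higher and 2 to 5 lower, the fewest higher without 3h replicate 2, 3 or 4 and the fewest lower without 3h replicate 1 or 2 or 24h replicate 1 or 3. Lcn2, a siderophore-binding defence protein, went from 10.9, 11.9, 12.2 and 7.78 to 61.8, 57.3, 35.5 and 70.9 TPM (2.46 ± 0.42, adjusted p = 0.0037). Saa3, a serum amyloid, went from 0.774, 0.124, 0 and 0.237 to 1.49, 3.52, 0.901 and 3.6 TPM (2.99 ± 0.65, adjusted p = 0.0059). Lrg1, a secreted glycoprotein, and Timp1, an inhibitor of matrix proteases, changed by 0.87 ± 0.22 (adjusted p = 0.022) and 1.79 ± 0.45 (adjusted p = 0.024), but Lrg1 kept the call only without 3h replicate 1, 24h replicate 2 or 24h replicate 3, and Timp1 only without 24h replicate 1, 3 or 4 (adjusted p otherwise up to 0.085). Il4ra, the interleukin 4 receptor, went from 42.9, 36.7, 37.5 and 31.5 to 11.8, 21, 12.1 and 22 TPM (-1.12 ± 0.20, adjusted p = 0.0030). Il1r1, the interleukin 1 receptor, changed by -0.84 ± 0.17 (adjusted p = 0.0045). At 0h Il4ra stood at 14.9, 11.2, 14.6 and 8.93 TPM, a range that the 24h libraries overlapped and the 3h libraries did not. Cebpd, a transcription factor induced by both cytokines and glucocorticoids, fell from 132, 109, 99.1 and 97.9 to 24.9, 34.9, 16.1 and 60.1 TPM (-1.62 ± 0.43, adjusted p = 0.040) and kept the call only when 24h replicate 4 was left out (adjusted p otherwise up to 0.12). With Myl7 as a covariate 1 member was higher and 2 lower, Saa3 and Lrg1 no longer called (adjusted p = 0.090 and 0.17).

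Chemokines were among the largest rises. Cxcl5, which attracts neutrophils, had 1 count at 3h and 49 counts at 24h, a ratio of 45.0 after scaling (95% exact interval 7.70 to 1813, for counting error only). Its TPM were 0, 0.173, 0 and 0 at 3h and 0.521, 5.77, 1.26 and 0.458 at 24h (adjusted p = 0.0093). At 0h it stood at 1.21, 0.521, 1.21 and 0.882 TPM. Ccl2, which attracts monocytes, went from 4.81, 5.66, 5.11 and 4.62 to 17.9, 100.02, 23.2 and 7.0 TPM (2.82 ± 0.61, adjusted p = 0.014), with 24h replicate 2 far above the others. Its 0h levels were 11.6, 9.66, 10.6 and 11.3 TPM. Cxcl2 changed by 2.80 ± 0.81 (adjusted p = 0.035), its groups overlapped, and it kept the call only without 3h replicate 3, 24h replicate 1 or 24h replicate 3 (adjusted p otherwise up to 0.15). These were the 3 of 27 tested chemokines and cytokines that were called, all higher, against 4.03% higher among all genes. With Myl7 as a covariate Cxcl5, Ccl2 and Cxcl2 were not called (adjusted p = 0.057, 0.079 and 0.28). With the 3h and 24h libraries fitted alone Ccl2 had an adjusted p of 0.13, and without 24h replicate 4 the list had 5 higher members. The list's median was 0.29, and -0.17 without 24h replicate 2.

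**Figure D4:**
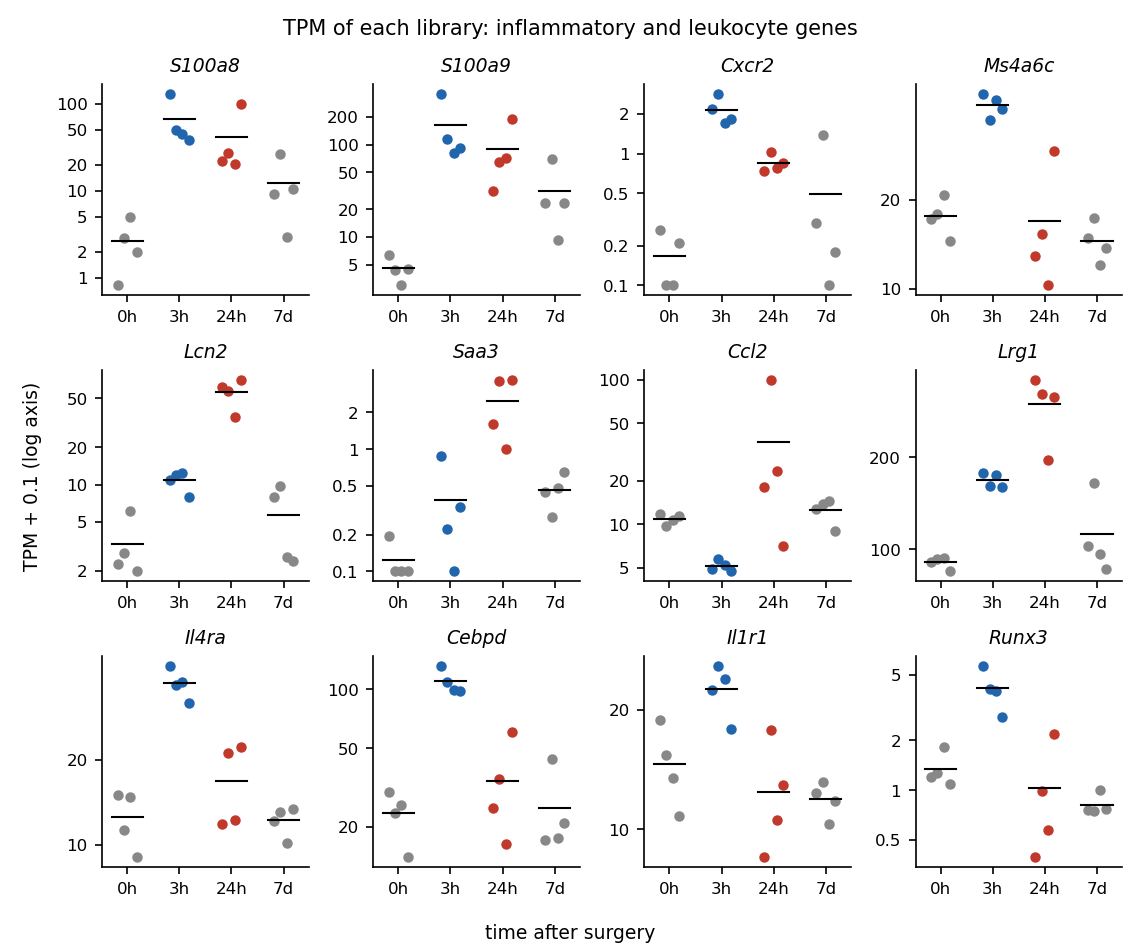
TPM plus 0.1 on a log axis against time after surgery, with 1 point per library, 4 libraries per time, and the mean as a bar; 3h is blue, 24h red and 0h and 7d grey. S100a8 and S100a9 overlap between 3h and 24h, Lcn2, Saa3, Ccl2 and Lrg1 are higher in every 24h library than in any 3h library, and Ms4a6c, Il4ra, Cebpd, Il1r1 and Runx3 are lower in every 24h library.

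Vessel genes moved in both directions. Rnase1, an extracellular ribonuclease of endothelium, rose from 0.872, 0.325, 0.617 and 0.312 to 21.8, 9.56, 9.77 and 24.1 TPM (4.92 ± 0.64, adjusted p = 8.3e-05). At 0h it stood at 3.27, 2.93, 0.38 and 2.32 TPM. Apln, the peptide ligand of the apelin receptor, fell from 12.8, 16.3, 17.2 and 14.5 to 1.54, 3.11, 4.94 and 1.99 TPM (-2.39 ± 0.46, adjusted p = 0.0068), below its 0h levels of 35.7, 26.7, 20.8 and 29.95 TPM. With Lrg1 higher and Plvap, of the diaphragms of fenestrae, lower (-0.42 ± 0.13, adjusted p = 0.0498), 2 of 21 genes of endothelial activation were higher and 2 lower, against 4.03% and 3.56% among all genes. Cldn5, a tight junction protein and the sole called member of 15 endothelial markers, changed by 1.72 ± 0.47 (adjusted p = 0.043). Plvap kept the call only without 24h replicate 2 or 4 and Cldn5 only without 24h replicate 2 or 3 (adjusted p otherwise up to 0.14). Among matrix genes 4 of 44 were higher and 0 lower, against 4.03% and 3.56% among all genes, with a median of -0.04. The count higher was 2 without 3h replicate 2, 3 or 4 or 24h replicate 2, and the fit without 24h replicate 4 gave 5 higher and 2 lower. Fbln2 and Fbln1, fibulins of the basement membrane and elastic fibres, changed by 0.61 ± 0.12 (adjusted p = 0.0030) and 0.49 ± 0.11 (adjusted p = 0.0088). The fibroblast marker Dpt changed the other way, by -0.57 ± 0.13 (adjusted p = 0.0084), as 1 of 12 markers of that cell, whose summed TPM was 2123 to 2291 at 3h and 2226 to 2462 at 24h.

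Of 25 heat shock genes and cochaperones 3 were higher and 1 lower, against 4.03% and 3.56% among all genes. Bag3, a cochaperone of the sarcomere, went from 176, 161, 187 and 219 to 301, 271, 323 and 290.0 TPM (0.71 ± 0.11, adjusted p = 0.00040). The inducible chaperones Hspa1b and Hspa1a changed by 1.91 ± 0.35 (adjusted p = 0.0015) and 1.69 ± 0.36 (adjusted p = 0.0050). They are near-identical copies. Hspa1b stood at 4.36, 2.77, 4.44 and 2.81 TPM at 0h, 0.617, 1.15, 0.436 and 0.552 at 3h and 3.03, 2.26, 2.93 and 1.93 at 24h. Fkbp4, a cochaperone of steroid receptors, changed by -0.41 ± 0.12 (adjusted p = 0.045) and kept the call only when 24h replicate 3 was left out (adjusted p otherwise up to 0.13). Among 27 immediate early genes 4 were higher and 2 lower, against 4.03% and 3.56% among all genes. Adding Myl7 as a covariate gave 1 higher and 0 lower, without 3h replicate 3 or 4 there was 1 higher, without 3h replicate 2, 24h replicate 1 or 24h replicate 2 there were 2, and without 24h replicate 4 there were 6. 1 was lower without 3h replicate 1, 3h replicate 3 or 24h replicate 1. The phosphatase Dusp5 rose by 1.39 ± 0.29 (adjusted p = 0.0049) and the transcription factor Atf3 by 1.28 ± 0.32 (adjusted p = 0.020), while Fosl2 and Dusp6 changed by -0.62 ± 0.15 (adjusted p = 0.015) and -0.49 ± 0.13 (adjusted p = 0.021). Atf3 lost the call without 3h replicate 2, 3 or 4, Fosl2 without 3h replicate 1 or 24h replicate 1, and Dusp6 without 3h replicate 3 or 24h replicate 4 (adjusted p up to 0.086). Glucocorticoid-responsive genes were called lower in 3 of 25 tested members and higher in 0, against 3.56% and 4.03% among all genes. The median was -0.44, with 20 values negative and 5 positive. The summed TPM of the list ran from 4400 to 5508 at 3h and from 2227 to 8480 at 24h, so the sums showed no common fall. Without 24h replicate 4 the count was 9 lower, and without each other library it was 0 to 2. Arrdc2, a member picked after its values were seen, stood at 82.1, 102, 112 and 104 TPM at 3h and at 7.96, 10.1, 10.5 and 59.8 TPM at 24h (-2.07 ± 0.63, adjusted p = 0.069). Of 23 clock genes 2 were higher and 0 lower, against 4.03% and 3.56% among all genes, with a median of 0.02. Cry2, a repressor of the clock, changed by 0.61 ± 0.13 (adjusted p = 0.0060).

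Of 17 tested liver markers 8 were lower (47.1%), against 3.56% lower among all genes, and 10 further markers were not tested. The filter on mean TPM over all 16 libraries can be passed through the 3h level alone. Alb, for example, stood at 0 to 0.281 TPM at 0h and at 0 to 0.196 TPM at 7d. A marker that passed in this way could hardly be called higher at 24h, so the share describes and supports nothing. With filterByExpr 0 were lower. With 1 library left out the count of lower markers ran from 3 to 11. Apoa1, an apolipoprotein made by liver and gut, stood at 1.87, 14.3, 12.4 and 3.0 TPM at 3h and 0.393, 1.02, 0.475 and 0.23 TPM at 24h (-3.80 ± 0.64, adjusted p = 0.00064). Mup3, a major urinary protein whose family members share sequence, had 101 counts at 3h and 1 at 24h, a ratio of 110.0 (95% exact interval 19.3 to 4388). Fgg, a fibrinogen chain, had 61 and 3 counts, a ratio of 22.1 (7.23 to 110.4). Both intervals cover counting error only. The levels of Apoa1, Mup3, Fgg and Alb were highest in 3h replicates 2 and 3. Leaving out 3h replicate 2 gave 3 lower markers, 24h replicate 3 gave 4, and 3h replicate 3, 24h replicate 1 or 24h replicate 2 gave 5. The summed TPM of all 27 markers was 50.3 to 208 at 3h and 43.7 to 73.5 at 24h, and Apob, Apoc3, Fga, Mup20, Cyp3a11 and Ambp had no count at 24h. Without both 3h replicates 2 and 3 edgeR called 0 of the markers, at a median of -1.92, in a fit that called 338 of all genes. Mup3 lost the call without 24h replicate 3 (adjusted p = 0.081) and Fgg without 3h replicate 2 (adjusted p = 0.053). The summed TPM of atrial markers was 303 to 796 at 3h and 527 to 1066 at 24h, with 0 of 6 tested members called by edgeR, DESeq2 or limma and 0 at an unadjusted p under 0.05. All 6 log2 fold changes were positive, with a median of 0.95, and without 3h replicate 3, the 3h library high in Myl7, 4 of the 6 were called higher (also 4 with no filter on low counts) and the median was 2.10. What part other tissue in the samples has in the results was not tested beyond these values and the fits with Myl7.

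**Figure D5:**
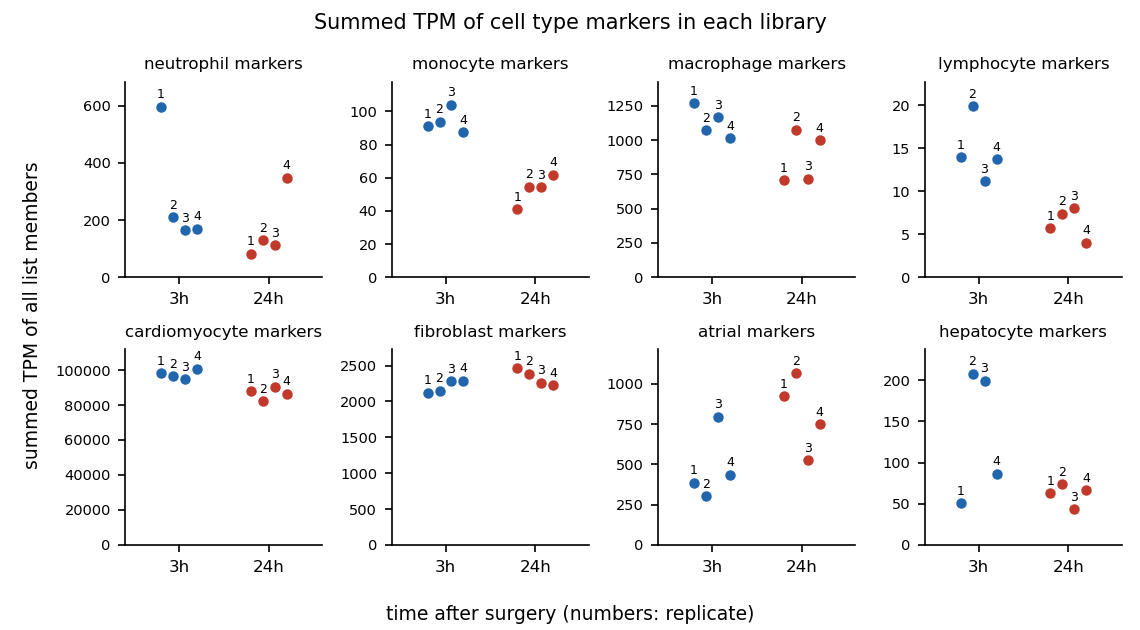
Summed TPM of all members of 8 lists of cell type markers in each library, on a linear axis from 0, with 3h in blue, 24h in red and the replicate number above each point. Monocyte and lymphocyte sums do not overlap between 3h and 24h. The neutrophil sum, which includes S100a8 and S100a9, is high in 3h replicate 1 and 24h replicate 4. The hepatocyte sum is high in 3h replicates 2 and 3.

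Growth signalling genes, cell cycle and interferon genes were also read. Spry1, a feedback inhibitor of receptor kinases, fell from 58.5, 57.2, 66.3 and 53.1 to 28.7, 35.9, 31.2 and 33.7 TPM (-0.83 ± 0.12, adjusted p = 0.00014). It is in a list of receptor kinase feedback assembled after values were seen. Of its 18 tested members 1 was higher and 4 lower, against 4.03% and 3.56% among all genes. Ccnd1, the cyclin that starts the division cycle, fell from 71, 63.4, 68.5 and 60.8 to 18.2, 34.6, 31.3 and 35.1 TPM (-1.12 ± 0.23, adjusted p = 0.0088). It was the sole member of 32 cell cycle genes called by this fit. Of the 32, 27 were negative and 10 had an unadjusted p under 0.05, with a median of -0.54. DESeq2 called 5 lower, the 3h and 24h libraries fitted alone 3, and the fit leaving out 24h replicate 3 called 4 lower. Of 24 p53 targets and kinase inhibitors 2 were higher and 2 lower, against 4.03% and 3.56% among all genes. Gadd45a, of growth arrest, changed by -0.97 ± 0.15 (adjusted p = 0.00033) and the kinase Plk2 by 0.59 ± 0.13 (adjusted p = 0.0081). Iigp1, a GTPase of cell defence, was the sole called member of 32 interferon-stimulated genes: 34.3, 33.3, 32.7 and 20.1 TPM at 3h and 134, 118, 73.3 and 48.2 TPM at 24h (1.66 ± 0.31, adjusted p = 0.0060), while the median of the list was -0.21. Without 24h replicate 2 the list had 3 lower members. Of 34 proteasome subunits 4 were higher (Psmd11, Psmd4, Psmc1 and Psmd12) and 0 lower, against 4.03% higher among all genes, at a median of 0.21. The fit with Myl7 as a covariate called 0 of them (13 had an unadjusted p under 0.05 without the covariate, and DESeq2 called 6), the fits without 3h replicate 2, 3h replicate 3, 24h replicate 1 or 24h replicate 4 called 2, and that without 24h replicate 3 called 10. Cytosolic ribosomal proteins were called in 0 of 76 by edgeR, DESeq2 and limma, with 0 at an unadjusted p under 0.05 and a median of 0.02. Called genes were longer and more abundant than the rest: the median length in the deposited table was 4142 bases for higher, 4272 for lower and 3494 for other genes, and the median TPM 21.2, 17.3 and 7.31. They were also more often protein coding, at 91.8% of higher, 91% of lower and 75.4% of other genes. These traits were not separated from each other.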

How the data were processed

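Polyadenylated RNA of mouse left ventricle was sequenced as strand-specific libraries, per the labels' protocols, 4 at each of 0h, 3h, 24h and 7d. Reads were trimmed with cutadapt and aligned with STAR to mm10, per the submitters' processing notes; the counting tool, its strand setting and the versions were not given in the sources used here, so that antisense and overlapping genes such as Foxo6os are uncertain. The authors deposited whole-number counts per gene, TPM, FPKM and a length for 57143 genes in 1 table; the deposited TPM equal the counts divided by that length and scaled to one total in each library, and the deposited FPKM were not used. Column names carry a different prefix from the sample titles and were matched by time and number. Of the gene identifiers 90.7% were found in the GRCm38 annotation GENCODE M21, which gave positions. No 2 libraries were identical.

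Genes whose TPM averaged 0.5 or more over 16 libraries were tested with edgeR 4.0.16 (R 4.3.3): TMM scaling, robust quasi-likelihood fit of 4 group means on the counts, contrast 24h minus 3h, Benjamini-Hochberg adjustment over all 16866 genes. Errors of log2 fold changes are standard errors. Depth was 9.06 to 11.3 M counts in the 8 libraries; exact 95% intervals and the floor of 3 counts cover counting error only, as reads carry no molecular identifiers. DESeq2 1.42.0, limma 3.58.1 on log2(TPM + 1) and log2(TPM + 0.1), other scalings and filters, a Myl7 covariate and fits without single libraries were alternatives.

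The comparison, the 42 gene lists and the tests were chosen with earlier results of these data known, and 5 lists (linker histones, amino acid catabolism, drug and aldehyde metabolism, peroxisome, receptor kinase feedback) after values of this comparison were seen; no test rests on those. Named were S100a8, S100a9, Myl7, Alb, the 12 largest rises and 12 largest falls (averaging 2 TPM or more at either time, no overlap, no predicted-gene name) and, in each list described, up to 4 called members of smallest p, with up to 2 more where fewer were called. A few genes that this rule names are not reported here. Myh7, Arrdc2, Fen1 and Gm55118 were chosen after their values were seen, and Mgst1, Sod1 and Nfe2l2 for their promoter match. Replicate numbers are shared by the times, but no same-numbered pair deviated together by more than 0.1, so no block was used. Promoters are from RefSeq on GRCm38.p6; 6 motifs were searched.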

Additional observations from a re-analysis of the deposited data

Results flagged for a closer look

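Groups of 4 libraries were the total counts and the TPM of the genes named here, at 3h and at 24h. In 18 of 216 groups (8.33%) 1 library stood farther from the others than Dixon's 95% limit for 4 values. Chance flags about 1 in 20 independent groups of normal values. These are raw TPM of genes that can move together, some chosen after their values were seen. The share of flags is therefore not to be weighed against that rate.

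At 3h the highest library stood apart for S100a8, at 130.4 TPM against 49.6 in the next, S100a9, at 356 against 113, Myl7, at 146 against 8.39, Ftl1, at 872 against 709.7, and Cxcl5, at 0.173 with 0 in the rest. The lowest 3h library stood apart for Cat, at 174 TPM against 221, Casq2, at 817 against 1124, Thrsp, at 90.3 against 104, and Iigp1, at 20.1 against 32.7.

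At 24h the highest library stood apart for S100a8, at 97.9 TPM against 26.9, Cxcl5, at 5.77 against 1.26, Cdo1, at 97.8 against 30.6, Arrdc2, at 59.8 against 10.5, Timp1, at 78.3 against 23.1, Fbln2, at 63.6 against 52.7, Fen1, at 70.7 against 13.9, and Mup3, at 0.303 with 0 in the rest. The lowest 24h library stood apart for Ces2e, at 0.105 TPM against 0.63.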

How the results depend on the processing

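RLE scaling, quantile normalization, library totals alone, filterByExpr, a mean TPM of 1 or more and an edgeR fit without robust estimation kept each count of changed genes within 1.5 times of the 679 higher and 600 lower; with library totals alone 43.7% of calls were higher. DESeq2 called 1685 genes (896 higher, 789 lower). The 3h and 24h libraries alone gave 812 (422 higher, 390 lower), Myl7 as covariate 539 (265 and 274), no 3h replicates 2 and 3 338 (183 and 155), and the libraries of low Myl7, chosen after seeing the data, 503 (295 and 208); the cause was not tested. In the last of these the lone 24h library is assumed to vary like the other groups. Limma called 437 higher genes with a pseudocount of 1 and 422 with 0.1. Without a filter 904 were lower, in a fit whose prior degrees of freedom were infinite, so its p-values are too small where the spread is wide; 3 or more counts over all libraries, a filter added after seeing the data, gave 618 higher and 557 lower. Leaving out 1 library gave 756 to 1644 changed genes, 380 to 828 higher and 359 to 816 lower.

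The fatty acid list had 7 higher members in the 8 libraries alone, 6 with Myl7, 4 without 3h replicates 2 and 3 and 4 at low Myl7, and 7 to 13 with 1 library left out. The NRF2 list had 8 with Myl7, 6 without 3h replicates 2 and 3, 3 at low Myl7, and 9 to 14. The FOXO list had 3, 2 and 1 in those fits, and 6 to 11. Lipogenesis had 4 without 3h replicates 2 and 3, and 4 to 7. Hepatocyte markers had 19 lower without a filter, 14 with 3 or more counts, 0 with filterByExpr, 3 with a mean TPM of 1, 5 with DESeq2, 2 with limma (pseudocount 0.1), 0 without 3h replicates 2 and 3, 1 at low Myl7, and 3 to 11. Log2 fold changes reversed for S100a8 (0.043) and S100a9 (0.0042) without 3h replicate 1, for Myl7 under its own covariate (-0.0053) and for Fen1 at low Myl7 (-0.78). Without single libraries S100a8 lay between -1.57 and 0.043 and S100a9 between -1.62 and 0.0042. Of 98 called named genes 72 kept the call in all 8 fits that left out 1 library.

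With the replicate block 1069 genes were called (550 higher, 519 lower). Deviations of same-numbered libraries correlated at 0.052, 0.035, 0.055 and -0.023, and not every library correlated best with its own number. Genes at low counts, such as Cxcl5 and Mup3, are limited by depth.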

Other observations

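A few genes outside the named comparisons varied widely between libraries of 1 time. Fen1, a flap endonuclease of DNA replication and repair, stood at 70.7, 8.09, 3.64 and 13.9 TPM in 24h replicates 1 to 4 and between 5.12 and 6.78 TPM at 3h. Its log2 fold change was 2.13 (edgeR adjusted p = 0.11, DESeq2 adjusted p = 0.022). Gm55118, a predicted microRNA gene 57 bases long in the table, had 453 counts at 3h, at 688, 1779, 5.36 and 5.43 TPM, and 0 counts in all libraries of the other 3 times. It did not pass the main test (edgeR adjusted p = 0.33) or DESeq2 (adjusted p = 0.13). With the 3h and 24h libraries fitted alone its edgeR adjusted p was 0.37. It was called by edgeR without robust estimation (adjusted p = 0.022) and with the replicate block (adjusted p = 4.9e-05). Limma on log2(TPM + 1) and on log2(TPM + 0.1) also called it (adjusted p = 0.013 and 0.0014). Both were chosen after their values were seen.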
